A study of Mus musculus with 20 samples.

Results

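Granzymes and perforin are the proteins that killer lymphocytes pack into their cytotoxic granules, and 9 genes of this group were followed here: Gzma, Gzmb, Gzmc, Gzmd, Gzme, Gzmf, Gzmg, Gzmk and Prf1. They were found in the gene count table by symbol, 9 of its 52783 genes. Perforin, the product of Prf1, forms pores in the membrane of the target cell, and granzymes are serine proteases that enter through them. Granzyme B cleaves after aspartate and triggers apoptosis, granzymes A and K have trypsin-like activity, and granzymes C to G are rodent proteases encoded beside granzyme B whose roles are less well known. NK cells, cytotoxic T cells and related innate lymphocytes make these proteins, and their amounts change with the activation of the cell. The genes were chosen with earlier results from these samples in view, including the place of Gzmg among the largest differences between immune cells of the tumours. Values of that contrast are therefore given as a description, without a test.

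RNA was sequenced from tumours of 66cl4, a metastatic line, and 67NR, a non-metastatic line, both derived with 4T1 from the same mouse mammary carcinoma. Each tumour was grown from 1000000 cells injected into the mammary fat pad of a female BALB/cJ mouse aged 8 to 12 weeks. Mice received no other treatment, and tumours were taken 21 to 26 days later. Dissociated tumour cells were sorted on CD45, the leukocyte surface antigen, into a positive (immune) and a negative (non-immune) fraction, which gave 5 libraries in each of 4 groups from 10 animals. Each tumour type comes from a single cell line, so the contrast between tumours is one between these 2 lines. The sample titles name the gate and were followed, although for animals 5 and 6 with 66cl4 tumours another label names the opposite gate. The negative title of animal 5 names a different antigen and was read as CD45. Grouped by title, 5 general leukocyte markers summed to 90061 to 151068 normalised counts in the 66cl4 CD45+ libraries and to 259 to 1242 in the CD45- libraries. Total counts were 12960000 to 28080314 per library. Ptprc, the gene of CD45, in CD45- cells was at 0.385% of its CD45+ level in 66cl4 tumours and 1.22% in 67NR tumours. T cell markers did not stand apart between the CD45+ groups, with normalised counts of 12 genes summing to 2715 to 11495 for 66cl4 and 2741 to 11517 for 67NR. NK cell markers summed to 4281 to 7015 in 66cl4 and 4739 to 24349 in 67NR over 10 genes. Of these, Klra8 was near 0 in both CD45+ groups, with means of 0 in 66cl4 and 0.823 in 67NR. Il18rap had CD45+ means of 1571 in 66cl4 and 1121 in 67NR, whereas each other gene of the list had a lower mean in 66cl4.

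Gzmb to Gzmg lie side by side on chromosome 14, in the order Gzme, Gzmd, Gzmg, Gzmf, Gzmc and Gzmb with the related gene Gzmn among them, whereas Gzma and Gzmk lie on chromosome 13 and Prf1 on chromosome 10. The coding sequences of Gzmc to Gzmg share 71.1 to 93.3% of their bases in 10 pairs. Gzmb shares 65.1 to 75.6% with these genes, and Gzma and Gzmk share 50.9 to 53.5% with them. The first 86 coding bases, as long as a sequenced read, show how near these copies are and are printed from reference transcripts of GENCODE M21, with capitals at positions where the base is not that of Gzmd.
Gzmd: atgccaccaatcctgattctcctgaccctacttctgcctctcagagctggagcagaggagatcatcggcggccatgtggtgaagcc
Gzmg: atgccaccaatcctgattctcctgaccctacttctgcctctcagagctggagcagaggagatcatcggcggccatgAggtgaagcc
Gzme: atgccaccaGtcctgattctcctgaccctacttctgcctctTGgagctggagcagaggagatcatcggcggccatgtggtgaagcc
Gzmf: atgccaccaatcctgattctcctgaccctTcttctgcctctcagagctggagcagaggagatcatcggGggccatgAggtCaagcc
Gzmc: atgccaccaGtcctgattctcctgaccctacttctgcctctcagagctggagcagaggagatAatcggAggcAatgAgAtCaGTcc
Gzmb: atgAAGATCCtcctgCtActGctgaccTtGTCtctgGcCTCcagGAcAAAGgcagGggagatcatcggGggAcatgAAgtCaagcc

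Gzmg differs from Gzmd at 1 of these 86 positions, Gzme at 3, Gzmf at 4, Gzmc at 9 and Gzmb at 30. Over the whole transcript compared, stretches of 86 bases that are identical in another gene make up 3.07% of the windows of Gzmd, 2.91% of those of Gzmg and 1.93% of those of Gzme. The other 6 genes have 0 such windows. Stretches of 31 bases, the shortest match used by default in quasi-mapping, are shared for 42.1% of the windows of Gzme, 38.2% of Gzmd, 33.8% of Gzmg, 22.8% of Gzmf and 14.8% of Gzmc. Reads from such stretches may have been divided between near copies when the counts of Gzmd, Gzme and Gzmg were estimated.

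**Figure D1:**
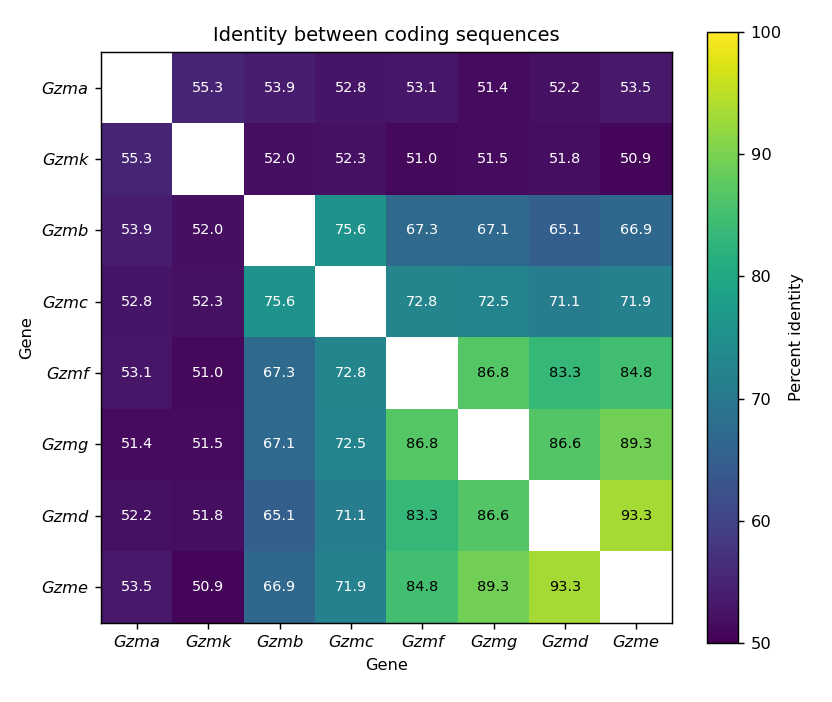
Percent identity between the aligned coding sequences of the 8 granzyme genes, with each cell giving one pair. Gzmc to Gzmg form a block of 71.1 to 93.3%, Gzmb stands next to it, and Gzma and Gzmk have 50.9 to 55.3% identity with every other gene.

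The 250 bases before the start of each gene were compared because members of the family varied together in the data described further on. Within Gzmc to Gzmg these promoters share 70.2 to 94.8% of their bases, and the other 18 pairs of granzyme promoters share 43.4 to 48.5%. The promoters of Gzmg, Gzmf, Gzmb and Gzma are shown, from RefSeq on build GRCm38.p6. Capitals mark matches on either strand to a Runx core (TGTGGT), a cAMP response element (TGACGTCA) or an AP-1 site (TGACTCA), and a T-box site (TCACACC) was also searched. These motifs were chosen after the sequences were seen.
Gzmg (chr14:56159580-56159829, minus strand): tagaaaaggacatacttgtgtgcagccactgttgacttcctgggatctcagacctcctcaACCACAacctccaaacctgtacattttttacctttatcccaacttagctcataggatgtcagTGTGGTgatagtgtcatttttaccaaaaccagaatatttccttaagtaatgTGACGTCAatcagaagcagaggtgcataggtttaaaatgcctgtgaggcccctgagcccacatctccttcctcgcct
Gzmf (chr14:56211408-56211657, minus strand): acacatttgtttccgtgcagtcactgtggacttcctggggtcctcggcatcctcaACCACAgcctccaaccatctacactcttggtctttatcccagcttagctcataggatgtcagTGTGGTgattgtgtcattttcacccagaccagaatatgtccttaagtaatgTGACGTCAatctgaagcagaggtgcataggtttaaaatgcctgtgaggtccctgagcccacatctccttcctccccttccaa
Gzmb (chr14:56262335-56262584, minus strand): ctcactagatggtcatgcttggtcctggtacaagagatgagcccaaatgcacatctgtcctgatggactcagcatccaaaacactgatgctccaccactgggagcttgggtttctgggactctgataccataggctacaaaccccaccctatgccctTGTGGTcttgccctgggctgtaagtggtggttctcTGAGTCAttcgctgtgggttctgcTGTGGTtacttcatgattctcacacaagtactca
Gzma (chr13:113100982-113101231, minus strand): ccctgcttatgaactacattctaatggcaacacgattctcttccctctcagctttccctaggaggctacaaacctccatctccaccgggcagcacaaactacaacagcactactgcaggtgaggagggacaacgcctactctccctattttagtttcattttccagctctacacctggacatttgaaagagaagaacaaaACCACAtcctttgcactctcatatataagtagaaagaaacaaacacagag

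The Runx core was found 2 times in each promoter of Gzmb to Gzmg, 1 time in those of Gzma and Prf1 and 0 times in that of Gzmk, and 14.05% of 32851 mouse promoters of this length hold it. The cAMP response element stood in the promoters of Gzmc, Gzmf and Gzmg, and 1.55% of all promoters hold it. The AP-1 site was found before Gzmb alone of the 9 genes, where 4.46% of all promoters hold it. The T-box site was found before Gzmk alone, where 3.33% of all promoters hold it. A match describes the letters of the window and no more.

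The 9 genes were found mainly in the immune fraction. In 66cl4 tumours all 9 had enough counts to be tested and all 9 were called higher in CD45+ than in CD45- cells, where a call is an adjusted p-value under 0.05 in edgeR's quasi-likelihood test and an absolute log2 fold change over 1, and 23.9% of the 14916 genes tested were called higher. In 67NR tumours 7 of 9 were tested and all 7 were called higher, against 20.2% of 15063 genes. Gzme and Gzmg did not pass the filter in 67NR tumours. Genes with CD45- levels near 0 passed it through their CD45+ libraries alone and had to differ, so these counts and the differences below describe the members, with no p-value for a gene near 0 in CD45- cells. Levels are given as normalised counts, which are estimated counts divided by a size factor of the library.

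Prf1 was at 324, 620, 614, 860 and 660 normalised counts in the 66cl4 CD45+ libraries of animals 3 to 7, and at 6.64, 3.12, 4.16, 2.12 and 13.97 in the CD45- libraries of the same animals. The lowest CD45+ library stood far above the highest CD45- library. The log2 fold change was 6.70 (SE 0.41, n = 5 per group). In 67NR tumours, Prf1 was at 328, 1058, 2528, 3758 and 8346 in the CD45+ libraries of animals 1, 4, 5, 6 and 7 and at 2.63 to 36.01 in the CD45- libraries, a log2 fold change of 7.47 (SE 0.94). The fitted gate difference of Gzmc in 66cl4 tumours was 7.65 on the log2 scale (SE 0.49). Gzmk had 174 counts in all over the 66cl4 CD45+ libraries and 5 over the CD45- libraries, a ratio of 37.2 after division by library size (95% counting interval 15.7 to 116). In 67NR tumours the differences of the 7 genes tested ran from 5.71 for Gzmf (SE 0.92) to 7.97 for Gzma (SE 0.85, adjusted p = 8.99e-06 in edgeR). The CD45+ and CD45- libraries did not overlap for any of the 9 genes in 66cl4 tumours, where 31.4% of all genes tested were higher without overlap. In 67NR tumours 8 of 9 did not overlap, against 27.5% of genes. The exception, Gzmg, had 34 counts in all over the CD45+ libraries and 3 over the CD45- libraries, a ratio of 15.4 after division by library size (95% counting interval 4.85 to 78.5). That interval and those given later cover counting error only.

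**Figure D2:**
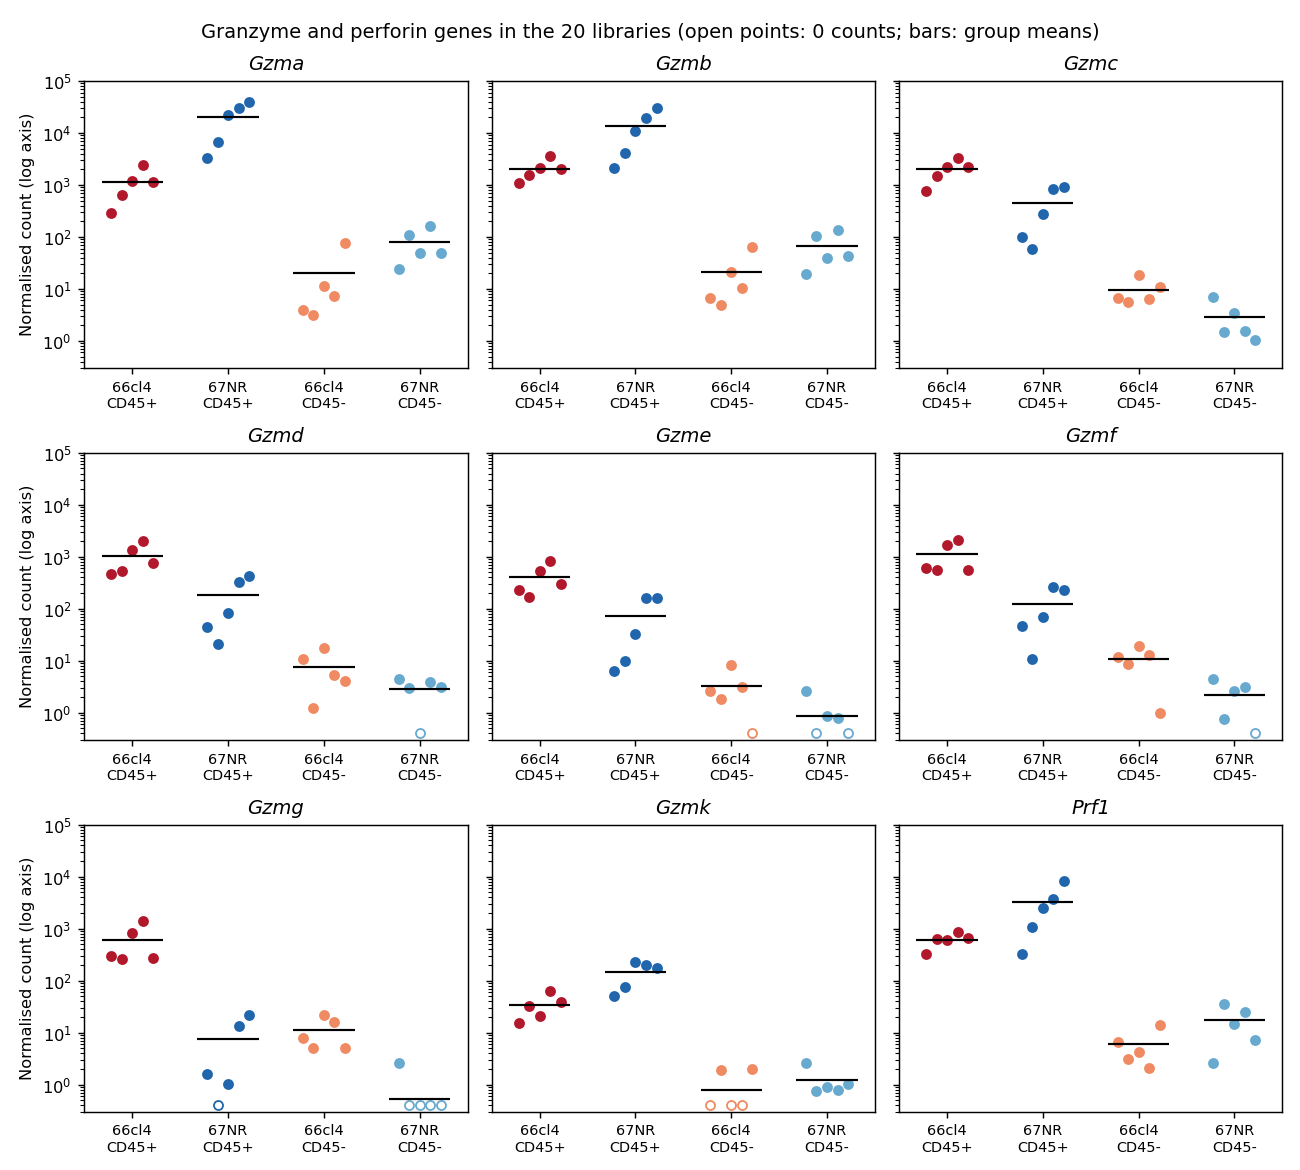
Normalised counts (log axis) of the 9 genes in the 20 libraries, 1 point per library in the order of the animal numbers, with bars at the group means and open points at libraries with 0 counts. CD45+ libraries lie above CD45- libraries in each panel except for Gzmg in 67NR tumours, and between the CD45+ groups Gzmc to Gzmg were higher in 66cl4 while Gzma, Gzmb, Gzmk and Prf1 were higher in 67NR.

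The CD45- signal of the 9 genes was small beside that of CD45+ cells. Mean levels in CD45- cells were 0.478% (Gzmc) to 2.25% (Gzmk) of the CD45+ mean in 66cl4 tumours, with a median of 0.975% over the 9 genes. In 67NR tumours they were 0.391% (Gzma) to 7.05% (Gzmg), with a median of 0.836%. The 5 general leukocyte markers lay at 0.322 to 0.873% in 66cl4 and at 0.990 to 2.34% in 67NR. In 66cl4, 3 of the 9 genes lay within the range of these markers and 6 above it, and in 67NR 5 lay below, 3 within and 1, Gzmg, above. Single libraries carried some of the values. Without the 66cl4 CD45- library of animal 7, Gzma fell from 1.80 to 0.573% and Gzmb from 1.02 to 0.520%, and the median was 0.849%. The value of Gzmg in 67NR rested on 3 counts in the library of animal 1, without which it was at 0 and the median was 0.592%. T cell markers lay at 0.161 to 1.499% in 66cl4 and at 0.456 to 2.84% in 67NR. NK cell markers had medians of 0.764 and 0.635%, and Il18rap, an interleukin receptor chain in that list, stood apart at 158% in 66cl4 and 19.4% in 67NR. Mast cell markers stood apart in 67NR, where 9 genes summed to 727 to 23044 normalised counts in CD45- and 24232 to 32164 in CD45+ libraries. In 66cl4 these sums were 21.2 to 102 and 4279 to 13368. The part of leftover immune cells in the CD45- values was not tested.

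Between immune cells of the tumours, the family split. Gzma, Gzmb, Gzmk and Prf1 were lower in 66cl4 than in 67NR CD45+ cells, and Gzmc, Gzmd, Gzme, Gzmf and Gzmg were higher. By the thresholds used for calls, 9 of 9 genes passed, 5 of them higher and 4 lower in 66cl4, where 5.01% of 14676 genes were higher, 6.82% lower and 11.8% either. Since the choice of genes drew on this contrast, the counts describe the members and support nothing further. Without 66cl4 animals 5 and 6, whose labels contradict each other, 4 of the 9 genes passed, namely Gzmg, Gzma, Gzmb and Gzmk, beside 8.5% of all genes. Without filtering 3 passed, Gzma, Gzmg and Gzmk, beside 7.35%, with a replicate block 7 beside 9.21%, with RLE factors 8 beside 11.9%, and with 1 library left out 5 to 8, the lowest without animal 5 or 7 of 66cl4 or animal 5 of 67NR. In these bulk samples, fewer cells of a type and less RNA per cell cannot be told apart.

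Gzma was at 289, 637, 1215, 2416 and 1152 normalised counts in the 66cl4 CD45+ libraries (animals 3 to 7) and at 3365, 6607, 21729, 30193 and 39388 in the 67NR CD45+ libraries (animals 1, 4, 5, 6 and 7). The groups did not overlap, and within 67NR the libraries of animals 1 and 4 were far below the other 3. The log2 fold change was -4.11 (SE 0.76). Gzmb, the main apoptosis-inducing granzyme, was at 1090, 1554, 2106, 3598 and 1995 in 66cl4 and at 2138, 4194, 10767, 19532 and 30474 in 67NR, a log2 fold change of -2.65 (SE 0.64). Here the groups overlapped, since the lowest 67NR library lay below the highest 66cl4 library. Prf1, with the values given above, had a log2 fold change of -2.33 (SE 0.68) and overlapping groups. Gzmk was a minor transcript, at 15.3 to 64.2 in 66cl4 and 49.9 to 224 in 67NR, with a log2 fold change of -2.04 (SE 0.46) and overlapping groups.

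Gzmg showed the reverse. It was at 291, 255, 839, 1414 and 272 normalised counts in the 66cl4 CD45+ libraries and at 1.56, 0, 1.02, 13.2 and 21.6 in the 67NR CD45+ libraries. Every 66cl4 library stood above every 67NR library, and the log2 fold change was 6.31 (SE 0.87). Gzmf was at 605, 568, 1674, 2152 and 547 in 66cl4 and at 46.8, 10.99, 70.1, 260 and 230 in 67NR, a log2 fold change of 3.19 (SE 0.74) without overlap. Gzmd and Gzme had log2 fold changes of 2.51 (SE 0.76) and 2.50 (SE 0.79), also without overlap. Gzmc, the most abundant of this group, was at 751, 1511, 2263, 3316 and 2185 in 66cl4 and at 98.3, 58.3, 276, 854 and 929 in 67NR, where the lowest 66cl4 library lay within the 67NR range and the log2 fold change was 2.22 (SE 0.72). Of the 9 genes, 5 had groups without overlap, while 15.1% of all genes tested did. Within 66cl4, animals 5 and 6 had the highest levels of the 7 genes Gzma to Gzmg.

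**Figure D3:**
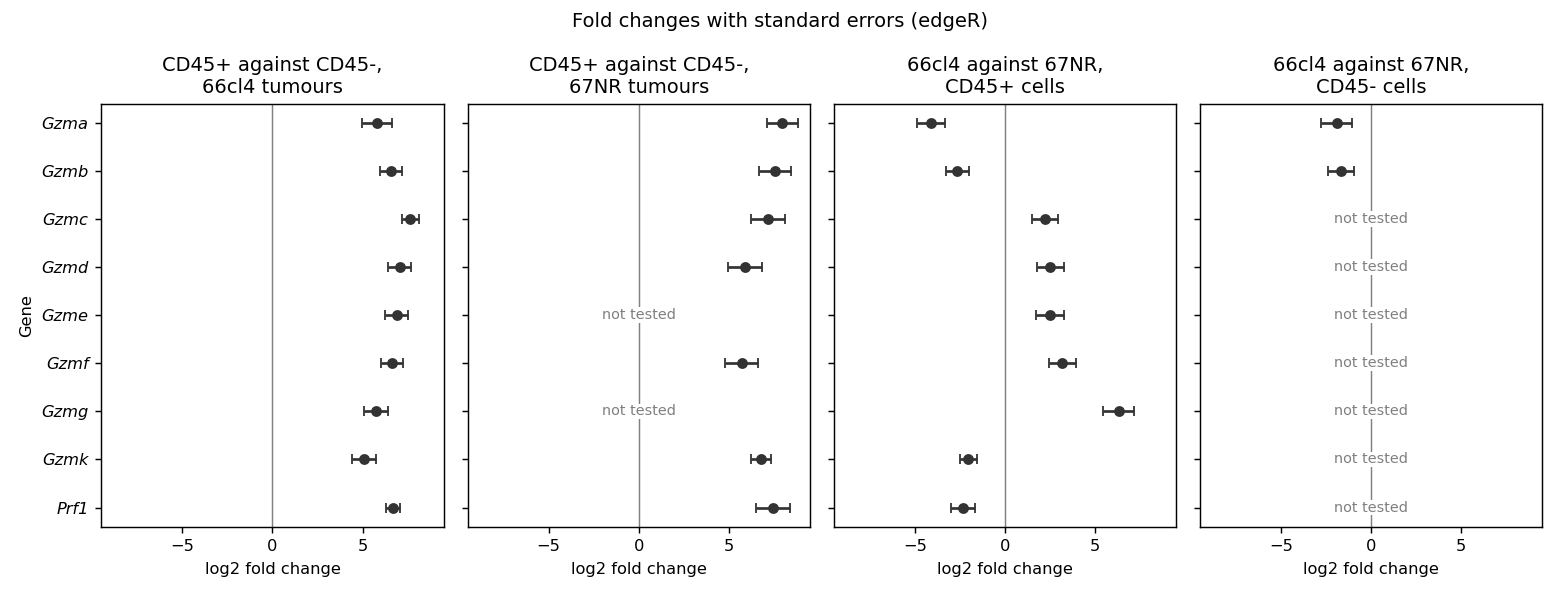
Log2 fold changes with standard errors of the 9 genes in the 4 contrasts, from edgeR, with genes that did not pass the filter marked as not tested. The gate contrasts lie to the right for all genes tested, whereas the contrast of 66cl4 against 67NR CD45+ cells has Gzmc to Gzmg at 2.22 to 6.31 and the other 4 genes at -4.11 to -2.04.

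The make-up of the granzyme mRNA pool was distinct in the tumours. Per length, on the TPM scale with reference transcript lengths, Gzmc was the most abundant of the 9 genes in 66cl4 CD45+ cells (145 ± 58.1 TPM, mean ± SD, n = 5), followed by Gzmb (93.1 ± 32.5), Gzma (77.4 ± 46.5), Gzmf (76.1 ± 43.7), Gzmd (67.2 ± 34.8), Gzmg (42.0 ± 30.04), Gzme (28.6 ± 15.1), Prf1 (18.2 ± 4.91) and Gzmk (1.92 ± 0.902). Neighbours in this order from Gzmb to Gzme lay within their spread. In 67NR CD45+ cells Gzma led (1484 ± 1160 TPM), followed by Gzmb (644 ± 578), Prf1 (99.4 ± 100.3), Gzmc (34.3 ± 33.4), Gzmd (13.1 ± 13.8), Gzmf (9.28 ± 8.86), Gzmk (8.42 ± 4.66), Gzme (5.64 ± 6.20) and Gzmg (0.579 ± 0.745). The SD of each gene from Gzmb to Gzmg in 67NR was near its mean or above it except for Gzmk, and neighbours in that order from Prf1 to Gzme lay within their spread. Prf1 had 0.239 to 0.399 counts per Gzmb count in 66cl4 and 0.153 to 0.274 in 67NR, with overlap.

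Gzmc to Gzmg together made up 62.7 to 72.4% of the summed TPM of the 8 granzymes in the 66cl4 CD45+ libraries and 1.08 to 4.05% in the 67NR CD45+ libraries. Gzma with Gzmb made up 27.4 to 36.9% and 95.1 to 98.3%. The spread within each tumour was small beside the gap, although the total varied widely, from 248 to 880 TPM in 66cl4 and from 313 to 4552 TPM in 67NR.

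**Figure D4:**
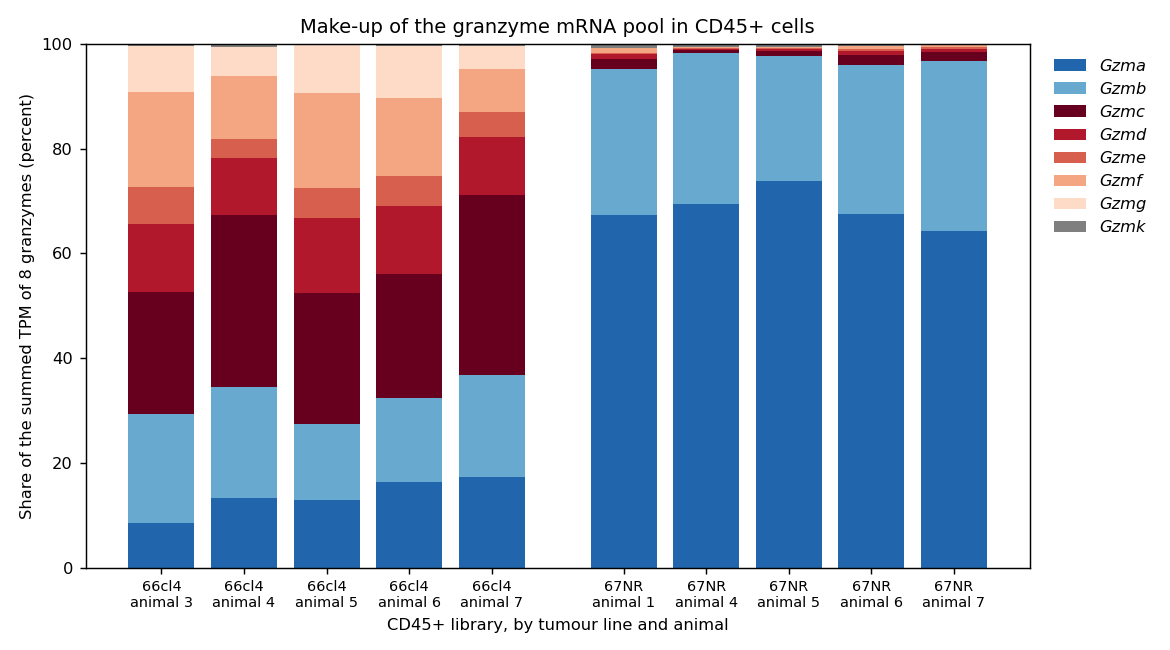
Share of each granzyme in the summed TPM of 8 granzyme genes, in percent, with 1 bar for each of the 10 CD45+ libraries. Shades of red (Gzmc to Gzmg) fill 62.7 to 72.4% of the 66cl4 bars and 1.08 to 4.05% of the 67NR bars, and Gzma with Gzmb in blue fills 95.1 to 98.3% of the 67NR bars.

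Setting counts against Ncr1, an activating receptor of NK cells and related innate lymphocytes, separated the genes further. Ncr1 itself ranged from 299 to 1304 normalised counts over the 66cl4 CD45+ libraries and from 698 to 8004 over the 67NR ones. Its log2 fold change was -2.51 (SE 0.61), and it was picked as a reference after its values were seen. Gzmb had 2.15 to 3.91 counts per Ncr1 count in 66cl4 and 2.08 to 3.81 in 67NR, so that the ranges nearly coincided. Of the 9 NK cell markers tested, 7 were lower in 66cl4 past the thresholds of a call, beside 6.82% of all genes tested. Their median log2 fold change was -1.87, against -2.51 for Ncr1 and -2.65 for Gzmb. The near match of Gzmb therefore holds for Ncr1 as the reference, and ratios to the other NK cell markers were not taken. Per Ncr1 count, Prf1 had 0.659 to 1.142 in 66cl4 and 0.470 to 1.04 in 67NR, and Gzmk 0.0394 to 0.0512 and 0.0221 to 0.0716, both overlapping. Gzma remained lower in 66cl4 on this scale, with 0.881 to 2.26 counts per Ncr1 count against 3.28 to 5.08. Gzmc had 2.09 to 4.21 against 0.0289 to 0.141, and Gzmg 0.299 to 1.56 against 0 to 0.00270. Against Cd3e, a chain of the T cell receptor complex, more of the genes overlapped between the tumours. Gzmb had 1.39 to 10.4 counts per Cd3e count in 66cl4 and 4.93 to 54.7 in 67NR. Gzmc had 1.35 to 11.2 against 0.0685 to 1.67 and Gzmd 0.482 to 6.82 against 0.0245 to 0.777, each with overlap. Gzmg had 0.228 to 4.16 against 0 to 0.0387, and Gzma 0.571 to 6.03 against 7.77 to 70.6, without overlap. Relative to Gzmb in the same library, Gzmc had 0.689 to 1.09 counts in 66cl4 and 0.0139 to 0.0460 in 67NR, and Gzma 0.265 to 0.671 and 1.29 to 2.02.

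**Figure D5:**
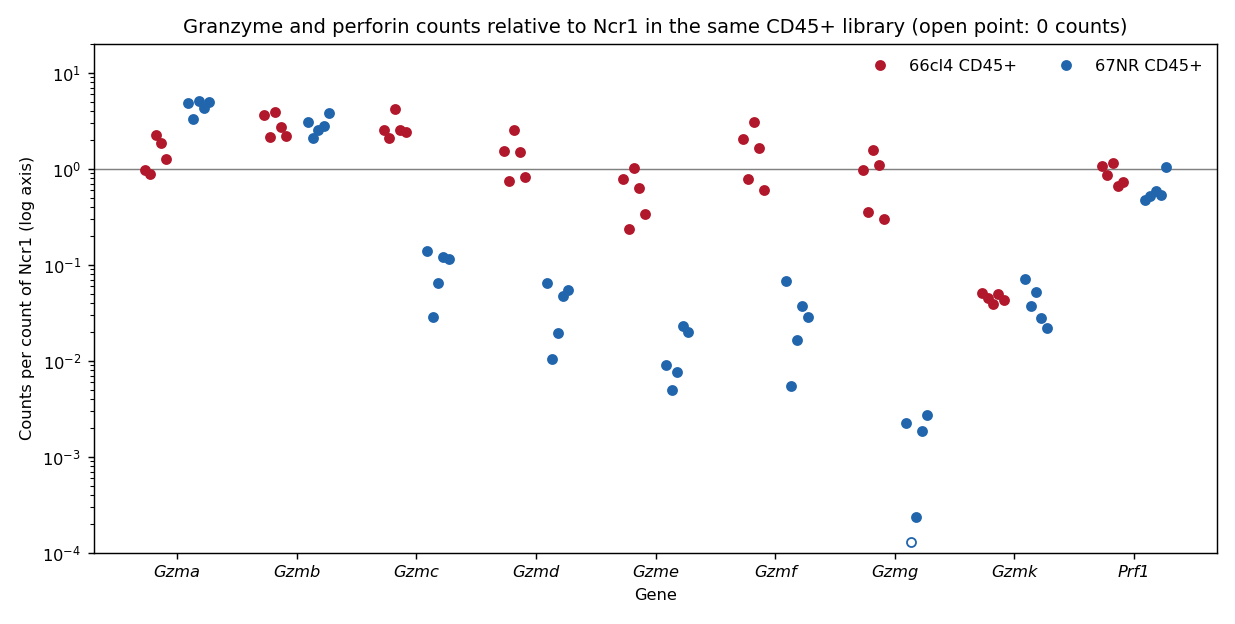
Counts of each gene divided by the count of Ncr1 in the same CD45+ library (log axis), with 1 point per library and an open point for the 67NR library with 0 counts of Gzmg. Gzmb, Gzmk and Prf1 overlap between the tumours, Gzma is lower in 66cl4, and Gzmc to Gzmg are higher in every 66cl4 library.

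The genes also varied with one another across animals. Over the 10 CD45+ libraries, on log2(CPM + 1) values, the genes most like Gzmb were Klrg1, an inhibitory receptor of mature NK and T cells (Pearson r = 0.991), Gm15518 (r = 0.989) and Klrb1a, an NK receptor (r = 0.987). Prf1 was nearest to Klrg1 (r = 0.985), 1810006J02Rik (r = 0.979) and Cst7, which encodes the granule protein cystatin F (r = 0.977). Gzma was nearest to Gng2 (r = 0.981), Neto2 (r = 0.981) and Klra3 (r = 0.973), and Gzmk to Gm29243 (r = 0.974), Csf2 (r = 0.973) and Klrb1c (r = 0.971). Gzmc and Gzmd shared Gm26902 (r = 0.971 and 0.980) and Avil (r = 0.970 and 0.978) among their 3 nearest genes. Pspc1 (r = 0.954) completed the list of Gzmc and Fam78b (r = 0.952) that of Gzmd. Gzme was nearest to Avil (r = 0.973), Gtf2f2 (r = 0.964) and Fam78b (r = 0.964), Gzmf to Tes (r = 0.975), Tec (r = 0.972) and Gm26902 (r = 0.955), and Gzmg to Qpct (r = 0.976), Cklf (r = 0.974) and Ambp (r = 0.970). These libraries fall into 2 tumours, so that any gene that differs between the tumours gains likeness, and each library is shared by all its genes.

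Removing the tumour means changed the likeness to Ncr1 for Gzmc to Gzmg and left that of Gzmb and Prf1 near where it was. With Ncr1, Gzmb had r = 0.979 over the libraries as they stood and r = 0.956 on deviations from the mean of each tumour, and Prf1 had 0.958 and 0.955. Gzmc had r = -0.144 as the libraries stood and 0.867 on deviations, Gzmd -0.223 and 0.775, Gzme -0.207 and 0.799, Gzmf -0.361 and 0.647, and Gzmg -0.574 and 0.473. On these deviations, pooled over both tumours, libraries with more Ncr1 tended to hold more Gzmc, Gzmd and Gzme as well. No value was taken for either tumour alone. With Cd3e, values on deviations ran from -0.214 (Gzmg) to 0.598 (Gzmk). The deviations were added after the data were seen, and these 10 values per gene are a description only.

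Between CD45- cells of the tumours, Gzma and Gzmb were the 2 genes with enough counts to be tested, and 0 of them were called by edgeR, where 32.2% of 14844 genes were called. Gzma was at 3.98, 3.12, 11.7, 7.44 and 76.9 normalised counts in 66cl4 CD45- libraries and at 24.6, 109, 48.3, 164 and 50.1 in 67NR CD45- libraries, with overlap through animal 7 of 66cl4. Its log2 fold change was -1.93 (SE 0.87, adjusted p = 0.0731 in edgeR), and that of Gzmb was -1.67 (SE 0.73, adjusted p = 0.0624 in edgeR). At an unadjusted p-value under 0.05 the count was 1, namely Gzmb, where at least the 32.2% of all genes called were under it too. Without the library of animal 7, Gzma (-3.53) and Gzmb (-2.61) were called lower by edgeR, with Gzmf called higher. Over all genes, 33.1% were called without that library. It was singled out after its values of Gzma and Gzmb, the highest of the group, were seen, so no p-value is given. Leaving out any other 66cl4 CD45- library gave 0 calls. Without filtering, 3 of 9 genes were called by edgeR, beside 23.0% of all genes, and DESeq2 called 3 of 9, beside 28.7%.

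The genes called without filtering by edgeR were Gzmg at 4.22 on the log2 scale (SE 0.79), Gzmf at 2.29 (SE 0.64) and Gzmc at 1.75 (SE 0.56). All were higher in 66cl4. They had too few counts for the filter, so they are described without a p-value. The part of leftover CD45+ cells, whose contrast guided the choice of genes, was not tested. Gzmg was at 7.96, 4.99, 21.6, 15.9 and 4.99 normalised counts in 66cl4 CD45- libraries, above each 67NR CD45- library, of which 4 were at 0 and animal 1 at 2.63. It was the 1 gene of the 9 without overlap, where 25.8% of genes were higher without overlap. In all, 60 counts stood against 3, a ratio of 22.6 after division by library size (95% counting interval 7.36 to 113). The make-up in CD45- cells leaned the same way as in the CD45+ cells of each tumour, apart from animal 7 of 66cl4. Gzmc to Gzmg were at 15.3 to 82.9% (median 75.6%) of granzyme TPM in 66cl4 and 2.88 to 35.4% (median 4.88%) in 67NR, from few counts per gene. The 15.3% was that of animal 7, where Gzma with Gzmb made up 83.6%.

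Other genes of the cytotoxic pathway were described from a list of 30 genes chosen with earlier results known. In the gate contrasts, 23 of the 28 tested were higher in CD45+ cells in each tumour and 1 was lower. Of all genes tested, 23.9% in 66cl4 and 20.2% in 67NR were called higher, and 20.5 and 19.6% lower. Median log2 fold changes of the list were 5.38 in 66cl4 and 4.64 in 67NR, beside medians of 0.00 and -0.05 over all genes tested. As with the members, any list gene near 0 in CD45- cells passed the filter through its CD45+ libraries and had to differ. The lower gene was Serpina3n, a secreted inhibitor of granzyme B, at -2.76 in 66cl4 (adjusted p = 5.06e-04 in edgeR) and -4.74 in 67NR (adjusted p = 5.87e-06 in edgeR). In CD45+ cells, 10 of the 27 tested were lower in 66cl4 and 2 higher, beside backgrounds of 6.82 and 5.01%, with a median of -0.24 beside 0.01 over all genes. In CD45- cells, 3 of the 21 tested were higher in 66cl4 and 6 lower, beside backgrounds of 13.2 and 18.9%.

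By role, 3 of the 7 tested granule partners were lower in 66cl4 CD45+ cells, namely Ctsw, Nkg7 and Cst7. Srgn, the proteoglycan that holds granzymes in the granule, was higher, with a mean of 88608 ± 29260 normalised counts in 66cl4 and 29942 ± 10769 in 67NR (log2 fold change 1.56, SE 0.30). Ctsc, the peptidase that activates granzymes, had a log2 fold change of 0.06. Of the 4 release genes, Stx11, a membrane fusion protein, was higher (1.41, SE 0.29), and 3 did not pass. All 3 ligands and cytokines, Fasl, Tnfsf10 and Ifng, were lower, Ifng by the most at -3.08 (SE 0.43). Of 9 regulators, Tbx21, Eomes and Il2rb were lower and the other 6, Runx3 and Prdm1 among them, did not pass. Of the granzyme inhibitors, Serpina3g was lower (-1.53, SE 0.25), and the granzyme B inhibitor Serpinb9 was at -1.13 and did not pass. Many of these genes are made by other immune cells as well. Of 6 neutrophil markers, 4 were higher in 66cl4 CD45+ cells, beside 5.01% of all genes tested. The 6 markers summed to 42357 to 118225 in 66cl4 and 6911 to 49303 in 67NR. The part of these other cells in the values of Srgn and Stx11 was not tested.

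Of the other proteases of the chromosome 14 locus, 2 of the 4 tested were called in CD45+ cells, and both were lower in 66cl4. Between the CD45+ groups, 6.82% of all genes tested were called lower. Cma1 and Mcpt4, mast cell proteases, were lower in 66cl4 CD45+ cells, with Mcpt4 at 410 ± 243 normalised counts against 6487 ± 997 (log2 fold change -3.97, SE 0.39) and Cma1 at 719 ± 320.0 against 5505 ± 866 (-2.93, SE 0.28). Ctsg, a protease of neutrophils and mast cells, was at 42.8 ± 21.8 and 94.0 ± 54.3, and Mcpt8, a basophil protease, at 36.8 ± 12.2 and 15.8 ± 14.2 (log2 fold change 1.24, SE 0.56), the same direction as Gzmc to Gzmg, and neither passed the thresholds. Gzmn, which lies between Gzmg and Gzmf, was at 0 to 1.05 in 66cl4 and at 0 in the 67NR CD45+ libraries. Gzmm, encoded elsewhere, was at 3.82 to 10.99 and 3.12 to 10.8. The sum of 9 mast cell markers ran from 4279 to 13368 over the 66cl4 and from 24232 to 32164 over the 67NR CD45+ libraries, and its part in these values was not tested.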

How the data were processed

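Reads were filtered with fastp by the authors, who then estimated transcript counts in Salmon 1.3.0 and summed them to genes with tximport. The deposited estimated counts are not normalised. The notes name GRCh38, a human build, although the identifiers are those of mouse, and the mouse build is not given in the sources used here. RNA came from single-read sequencing over 86 cycles.

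For the tests, estimated counts were made whole by rounding, a change of at most 0.5. The members and lists were chosen with earlier results of these data known. Contrasts were fitted in R 4.3.3 by quasi-likelihood in edgeR 4.0.16, with TMM factors and a robust fit. The default filter by group (counts of 10, total of 15) was used, p-values were adjusted by Benjamini-Hochberg over all genes tested, and each fit held the compared groups alone. Calls needed an adjusted p under 0.05 with a log2 fold change beyond 1 either way. Standard errors are the fold change divided by the root of F. The code was tested on simulated data. Normalised counts were scaled by size factors from DESeq2 1.42.0 for all 20 libraries, and TPM used the median length of the protein-coding reference transcripts of a gene, which 1291 genes with 2.58% of all counts lack. A count of 0 allows up to 3 counts. Sequences were aligned with Biopython 1.88 and figures drawn with matplotlib 3.10.9.

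The genes named are the 9 members, the called genes of the granule list and the locus, the markers, and for each member with at least 10 counts on average in CD45+ libraries the 3 genes with the highest Pearson correlation. The choice of Ncr1 as a reference, and of list genes named without a call, followed a look at their values. Alternatives were RLE factors, DESeq2's Wald test, no filter, at least 10 counts in 5 libraries, all 20 libraries in the fit, a replicate block, the exclusion of 66cl4 animals 5 and 6, and the exclusion of each library. Libraries with the same number within a tumour are from the same animal, and their deviations correlated at 0.0224 to 0.182 in 66cl4 and -0.0101 to 0.348 in 67NR. Between tumours a number marks no shared animal.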

Additional observations from a re-analysis of the deposited data

Results flagged for a closer look

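In groups of 5 libraries, the highest or lowest value was set against the range of its group. Of 36 combinations of gene and group, 4 had 1 library far from the rest. The cut-off is made for normally distributed values, which counts near 0 are not, and genes of the same library are not independent. No chance rate is therefore given. All 4 are in CD45- cells. Gzma in the 66cl4 CD45- library of animal 7 was at 76.9 normalised counts, with the next library at 11.7, and Gzmb in the same library was at 62.9, with the next at 20.8. Prf1 in that library was at 13.97. In the 67NR CD45- library of animal 1, Gzmg was at 2.63 with the others at 0, and Gzmk was at 2.63 with the next at 1.02, which are 3 counts each.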

How the results depend on the processing

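In the gate contrasts 9 members were called in 66cl4 and 7 to 9 in 67NR in every alternative and with each library left out, which says little of genes that had to differ. Between tumours in CD45+ cells, all fold changes kept their direction. The count past the thresholds fell from 9 to 3 without filtering (7.35% of all genes called) and to 4 without 66cl4 animals 5 and 6 (8.5%), against 11.8% as reported, and was 5 to 8 with 1 library left out, the lowest without 66cl4 CD45+ animal 5 or 7 or 67NR CD45+ animal 5. Gzma, Gzmg and Gzmk were past the thresholds in every alternative. In CD45- cells, the count of 0 became 3 with DESeq2 (28.7% of all genes called) and without filtering (23.0%), 1 with all 20 libraries in the fit, and 0 to 3 with 1 library left out. It was 3 without 66cl4 animal 7 or 67NR animal 1, 2 without 67NR animal 7, and 1 without 67NR animal 4, 5 or 6, and fewer libraries also changed which genes passed the filter. With a replicate block, which pairs libraries of an animal in the gate contrasts, the counts were 9 in 66cl4 and 7 in 67NR, and between tumours, where numbers pair no animals, 7 in CD45+ and 0 in CD45- cells. On the granule list, 15 genes in place of 9 were called in CD45- cells with all 20 libraries. Of all genes, 2009 were then called higher and 3284 lower out of 16453, in place of 1965 and 2809 out of 14844. In CD45+ cells, 6 list genes in place of 12 were called both without filtering and without animals 5 and 6. The share of all genes called was 7.35 and 8.5% there, in place of 11.8%. The causes were not tested. On CPM and TPM scales, the ratios of means between tumours kept their direction for all 9 members. Between tumours in CD45- cells 7 members had too few counts for the filter, in libraries of 13050039 to 28080314 total counts.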

Other observations

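Eomes, a T-box factor of NK cells and cytotoxic T cells, was not confined to the immune fraction of 66cl4 tumours. It was at 170 ± 67.0 normalised counts (mean ± SD, n = 5) in CD45+ cells and at 190 ± 9.95 in CD45- cells of 66cl4 tumours, whereas 67NR tumours had 737 ± 515 and 4.21 ± 2.98. In CD45- cells the log2 fold change of 66cl4 against 67NR was 5.44 (SE 0.29), with every 66cl4 library at 173 or more and every 67NR library at 8.59 or less. All 9 granzyme and perforin genes in the same 66cl4 CD45- cells had means of 0.773 to 21.2. Il18rap likewise was at 2485 normalised counts in 66cl4 CD45- cells and 1571 in CD45+ cells. Both genes were picked after their values were seen.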
